A study of Homo sapiens with 2 samples.

Results

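The genes described here are 9 components of the tissue factor and plasminogen activator system: F3, TFPI, TFPI2, F2R, F2RL1, PLAU, PLAUR, PLAT and SERPINE2. They were chosen by symbol and with earlier results of these data known, so their values are a description. All 9 were found among the 13219 genes listed in either deposited table, all 9 were listed in both tables, and all 9 had a mean of 1 FPKM or more, the minimum for comparison. RNA sequencing was done on cells of a human breast line that the labels name only by a number. MDA-MB-231, a line from an invasive breast cancer, is often called by that number, but the labels do not write the full name. In the siYBX1 group the cells were transfected against YBX1, which encodes the nucleic acid binding protein YB-1, with a reagent called an siRNA in the treatment text and a Smart Silencer in the design text. The comparison group is labelled siNC. Both groups grew in L15 medium with serum, and RNA was taken 48 h after transfection. Each group held 1 library, so no difference below has a replicate check and no test was possible. The design asks how mRNA levels differ after the knockdown.

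Tissue factor, the product of F3, is a membrane protein that binds factor VII and starts blood clotting. TFPI blocks the tissue factor complex and activated factor X. The clotting proteases also cut protease-activated receptors, F2R (PAR1, the main thrombin receptor) and F2RL1 (PAR2, a receptor for trypsin-like proteases and for the tissue factor complex). In the fibrinolytic arm, the urokinase encoded by PLAU and the tissue activator encoded by PLAT turn plasminogen into plasmin. PLAUR holds urokinase at the cell surface, and serpins such as SERPINE2 (protease nexin-1) inactivate the activators. Invasive breast cancer lines often express tissue factor and urokinase.

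The promoters below are those of the 3 members that differed by 2-fold or more, and 1 of the 2 windows of SERPINE2, shown because it carries repeated Y-box cores, which the other does not. The Y-box, an inverted CCAAT sequence, gave YB-1 its name. RefSeq windows on GRCh38.p14, from 250 bases before to 50 bases after an annotated start, were found for 7 of the 9 members. Capitals mark matches on either strand to the Y-box core CCAAT, the AP-1 site TGANTCA, the NF-kB-like sequence GGANTTTCC and the Sp1 box GGGCGG. F3 lies at chr1:94541710-94542009, minus strand. Both PLAU starts are shown, at chr10:73910360-73910659, plus strand, and at chr10:73910882-73911181, plus strand. F2RL1 lies at chr5:76818780-76819079, plus strand. The SERPINE2 window shown, at its first start, lies at chr2:224031429-224031728, minus strand. Starts are numbered by chromosome position, so on this strand the second SERPINE2 start, at chr2:224038591-224038890, lies upstream of the first.
F3: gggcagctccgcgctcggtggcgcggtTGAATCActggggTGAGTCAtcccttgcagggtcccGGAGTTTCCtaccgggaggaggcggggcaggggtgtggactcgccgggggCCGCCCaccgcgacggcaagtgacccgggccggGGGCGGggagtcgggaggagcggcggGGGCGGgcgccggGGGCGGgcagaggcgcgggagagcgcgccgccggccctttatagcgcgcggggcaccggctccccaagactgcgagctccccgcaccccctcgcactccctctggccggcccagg
PLAU, first start: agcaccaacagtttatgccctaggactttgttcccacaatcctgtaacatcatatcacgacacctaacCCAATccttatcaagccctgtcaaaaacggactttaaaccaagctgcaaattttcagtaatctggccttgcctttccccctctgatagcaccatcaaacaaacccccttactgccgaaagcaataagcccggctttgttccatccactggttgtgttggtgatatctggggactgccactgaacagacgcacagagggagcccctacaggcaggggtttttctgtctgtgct
PLAU, second start: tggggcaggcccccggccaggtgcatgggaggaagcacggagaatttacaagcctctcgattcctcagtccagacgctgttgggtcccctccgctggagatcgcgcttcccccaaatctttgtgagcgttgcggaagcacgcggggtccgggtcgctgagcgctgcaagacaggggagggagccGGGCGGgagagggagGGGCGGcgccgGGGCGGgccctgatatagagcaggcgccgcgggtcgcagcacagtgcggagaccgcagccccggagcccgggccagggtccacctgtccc
F2RL1: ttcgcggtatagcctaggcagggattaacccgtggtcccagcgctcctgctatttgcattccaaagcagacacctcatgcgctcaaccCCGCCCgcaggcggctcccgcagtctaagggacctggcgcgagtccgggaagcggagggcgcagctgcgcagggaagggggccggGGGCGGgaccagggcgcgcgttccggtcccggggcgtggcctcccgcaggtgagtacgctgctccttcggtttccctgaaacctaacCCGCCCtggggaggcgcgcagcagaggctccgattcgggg
SERPINE2, first start: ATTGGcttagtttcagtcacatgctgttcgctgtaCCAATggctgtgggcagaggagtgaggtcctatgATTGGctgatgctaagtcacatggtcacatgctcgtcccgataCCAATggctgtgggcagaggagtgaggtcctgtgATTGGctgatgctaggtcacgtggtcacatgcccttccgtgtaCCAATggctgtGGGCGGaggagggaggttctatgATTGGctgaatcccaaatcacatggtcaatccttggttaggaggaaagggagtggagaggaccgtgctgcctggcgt

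The F3 window held 2 matches to the AP-1 site, beginning 223 and 210 bases before the start, 1 match to the NF-kB-like sequence 187 bases before it and 4 Sp1 boxes, and no Y-box core. Among 35116 windows of the same length, 7.71% held at least 1 AP-1 site, 1.64% at least 1 NF-kB-like sequence and 45.0% at least 1 Sp1 box. The SERPINE2 window at the first start held 7 Y-box cores between 250 and 27 bases before the start, a repeat on alternating strands. That at the second start, the upstream one, held 0 Y-box cores and 2 Sp1 boxes. Of all windows, 34.6% held at least 1 Y-box core. Shares of windows with several matches to a motif were not computed, so the counts above have no like background. Neither the F2RL1 window nor the second PLAU window held a Y-box core, and the first PLAU window held 1, at 182 bases before the start. Single AP-1 matches were also found in the windows of TFPI2 and PLAUR. These letters are a description of the windows and show no binding, and the tables do not say which start the cells used.

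YBX1 itself stood at 649 FPKM in the siNC library against 38.1 FPKM in the siYBX1 library, 17.0-fold lower in the direction of the labels. FPKM are numbers of fragments relative to the length of the transcript and the size of the library. In all 11678 genes were listed for the siYBX1 library and 13017 for the siNC library, 11476 of them for both, and 10548 were compared. Of 8 breast line markers, all compared, 7 lay within 2-fold, such as CD44 (51.6 FPKM in the siYBX1 against 46.4 FPKM in the siNC library), AXL (306 against 218 FPKM, in the same order) and EGFR (33.9 against 41.0 FPKM). The remaining one, KRT8, was lower in the siYBX1 library (27.7 against 74.7 FPKM). The hormone receptors ESR1 and PGR were in neither table. Of 13 hepatocyte markers, 11 were listed only in the siNC table, among them ALB at 10.4 FPKM, 1 (TTR) was in neither, and SERPINA1 stood at 40.0 FPKM in the siYBX1 and 17.0 FPKM in the siNC library. The summed level of the list was 40.0 FPKM in the siYBX1 and 67.5 FPKM in the siNC library. Endothelial, platelet, leukocyte and fibroblast lists summed to at most 34.8 FPKM in the siYBX1 and 15.9 FPKM in the siNC library. Of their genes, PECAM1, CDH5, VWF, PPBP, PTPRC and COL3A1 were in neither table. The leukocyte genes LYZ (0.671 against 1.91 FPKM, siYBX1 first) and CSF1R (0.278 against 0.321 FPKM) were in both. CD14 (0.484 FPKM) and the platelet gene PF4 (0.733 FPKM) were listed only in the siNC table. Listed endothelial and fibroblast genes are given at the end. In bulk RNA, fewer cells of a type and less RNA per cell cannot be told apart. Where the hepatocyte marker RNA of the siNC library came from was not tested.

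Of the 9 genes, 2 were at least 2-fold higher in the siYBX1 library (PLAU and F2RL1), 1 was at least 2-fold lower (F3), and 6 lay within 2-fold. Differences are in log2(FPKM + 1), siYBX1 minus siNC, a scale that understates the differences of low genes, and 2-fold is a difference of 1. Over all compared genes, the share past 2-fold was 7.20% on the higher side and 5.62% on the lower side, or 759 and 593 genes. That split depended on scaling: it was 585 and 835 genes with equal summed FPKM and 399 and 1278 genes with equal housekeeping levels, where the median of all genes shifted to -0.11 and -0.26. Because the genes were chosen with these values known, nothing is read from that contrast. The median difference of the 9 was 0.36, and that of all compared genes was 0.02. Levels of the 9 genes ran from 2.21 to 145 FPKM in the siYBX1 library and from 4.27 to 436 FPKM in the siNC library.

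**Figure D1:**
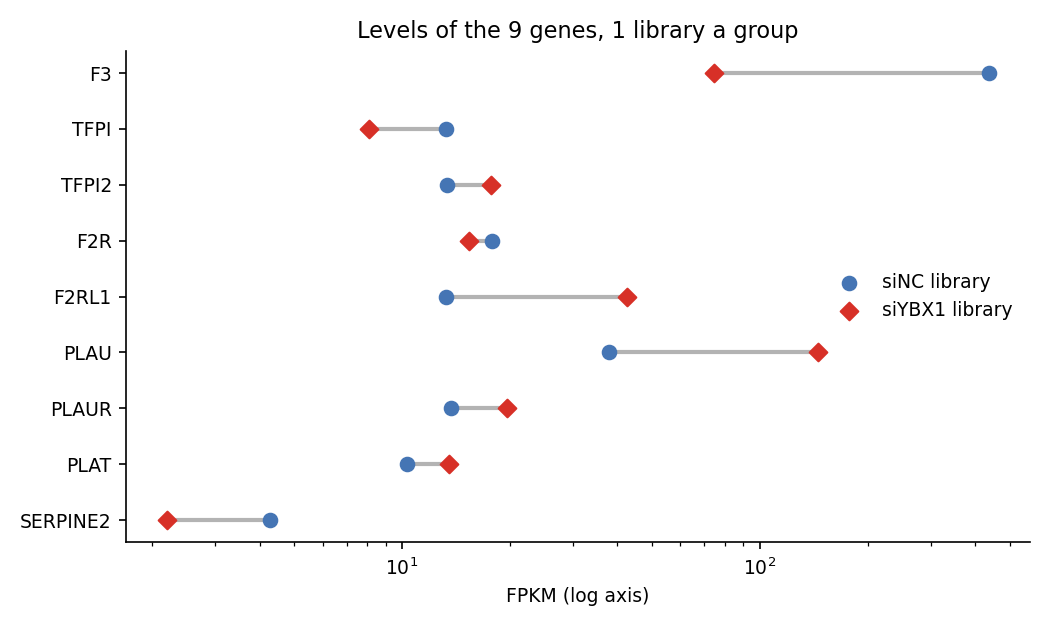
Level of each of the 9 genes in FPKM on a log axis, as 1 circle for the siNC library and 1 diamond for the siYBX1 library, joined by a line. F3 moves left from 436 to 74.6 FPKM, PLAU and F2RL1 move right, and the other members shift less.

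F3 (ENSG00000117525.13_2) was the highest of the 9 genes in the siNC library, at 436 FPKM, and stood at 74.6 FPKM in the siYBX1 library. It was thus 5.85-fold lower in the siYBX1 library, a difference of -2.53. By level it was the 25th of 13017 genes listed in the siNC library and the 376th of 11678 in the siYBX1 library. F3 therefore left the small group of most abundant mRNAs but was still an abundant one. Its difference was the 9th lowest of 10548, where that of YBX1 was the 2nd lowest. No other gene overlaps F3 in the GENCODE 29 annotation. The gene tables do not separate the membrane form of tissue factor from its soluble splice form. The hepatocyte markers that were listed only in the siNC library reached 12.04 FPKM at most (FGB), and their part in the F3 difference was not tested.

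Both Kunitz inhibitors of the TFPI family lay within 2-fold and on opposite sides of 0. TFPI (ENSG00000003436.15_3) stood at 13.3 FPKM in the siNC library against 8.11 FPKM in the siYBX1 library, a difference of -0.65. TFPI2 (ENSG00000105825.11_2), a matrix-bound relative that inhibits plasmin and trypsin better than the tissue factor complex, stood at 13.4 FPKM in the siNC library against 17.7 FPKM in the siYBX1 library, a difference of 0.38. The pair stood at nearly the same level in the siNC library and 2.18-fold apart in the siYBX1 library.

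The thrombin receptor gene and its PAR2 neighbour differed unlike each other. F2RL1 (ENSG00000164251.4_3) stood at 13.3 FPKM in the siNC library against 42.4 FPKM in the siYBX1 library, 3.20-fold higher, with a difference of 1.61. F2R (ENSG00000181104.6_2) stood at 17.8 FPKM in the siNC library against 15.4 FPKM in the siYBX1 library, a difference of -0.20. F2RL1 was thus the lower of the pair in the siNC library and the higher in the siYBX1 library. F2RL2 (PAR3), the remaining receptor of the family that was listed, was low in both, at 1.69 FPKM in the siNC and 1.57 FPKM in the siYBX1 library, and F2RL3 (PAR4) was in neither table. F2RL2, F2R and F2RL1 follow each other on chromosome 5 with no other protein-coding gene starting between them in GENCODE 29. Of these 3 neighbours, F2RL1 had the only difference past 2-fold. By level F2RL1 went from the 3094th gene of the siNC library to the 792nd of the siYBX1 library.

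PLAU (ENSG00000122861.15_2) had the largest positive difference of the 9 genes. Urokinase mRNA stood at 38.0 FPKM in the siNC library against 145 FPKM in the siYBX1 library, 3.82-fold higher, with a difference of 1.91. Its difference was the 71st highest of 10548, and its level the 137th in the siYBX1 and the 889th in the siNC library. C10orf55, which overlaps PLAU on the opposite strand, was listed only in the siYBX1 table, at 0.515 FPKM. The strand setting is not given, so reads of the pair cannot be told apart, and the part of C10orf55 in the PLAU difference was not tested.

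The urokinase receptor and the tissue activator were somewhat higher in the siYBX1 library, within 2-fold. PLAUR (ENSG00000011422.11_3) stood at 13.7 FPKM in the siNC library against 19.7 FPKM in the siYBX1 library, a difference of 0.50. PLAT (ENSG00000104368.17_3) stood at 10.3 FPKM in the siNC library against 13.5 FPKM in the siYBX1 library, a difference of 0.36.

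SERPINE2 (ENSG00000135919.12_3), an inhibitor of thrombin and of urokinase, was the lowest of the 9 genes in both libraries. It stood at 4.27 FPKM in the siNC library against 2.21 FPKM in the siYBX1 library, 1.94-fold lower, with a difference of -0.72 on the log2(FPKM + 1) scale. PLG, the plasminogen gene, was in neither table.

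**Figure D2:**
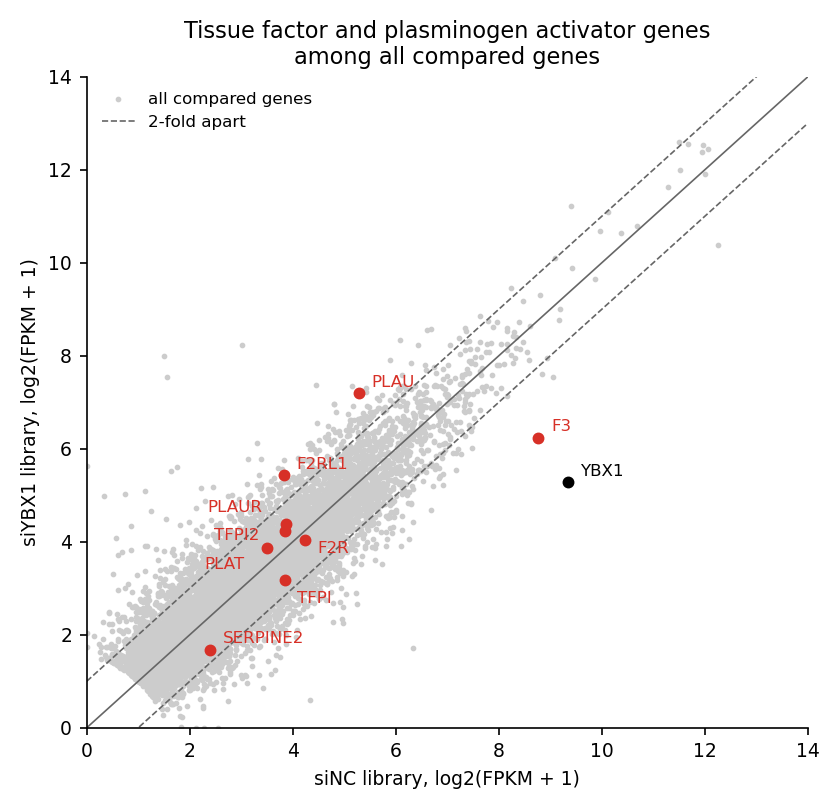
Each grey point is 1 of 10548 compared genes, by its level in the siNC library (horizontal) and the siYBX1 library (vertical), both in log2(FPKM + 1). The solid line marks equal levels and the dashed lines a 2-fold difference; F3 lies below the band, and PLAU and F2RL1 above it.

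Ratios of FPKM within a library do not depend on how that library was scaled. The ratio of F3 to TFPI was 32.7 in the siNC library and 9.20 in the siYBX1 library. That of F3 to TFPI2 was 32.7 in the siNC library and 4.22 in the siYBX1 library, 7.75-fold lower. Tissue factor mRNA thus exceeded that of either inhibitor in both libraries, by less in the siYBX1 library. PLAU stood at 2.77 times PLAUR in the siNC library and at 7.36 times in the siYBX1 library. Against PLAT its ratio was 3.69 and 10.7, and against SERPINE2 it was 8.89 and 65.8, in the same order of libraries. Urokinase mRNA therefore stood higher beside its receptor, the other activator and this inhibitor in the siYBX1 library. The ratio of F2RL1 to F2R was 0.747 in the siNC library and 2.76 in the siYBX1 library. Levels of mRNA do not give the amounts of secreted or surface protein.

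**Figure D3:**
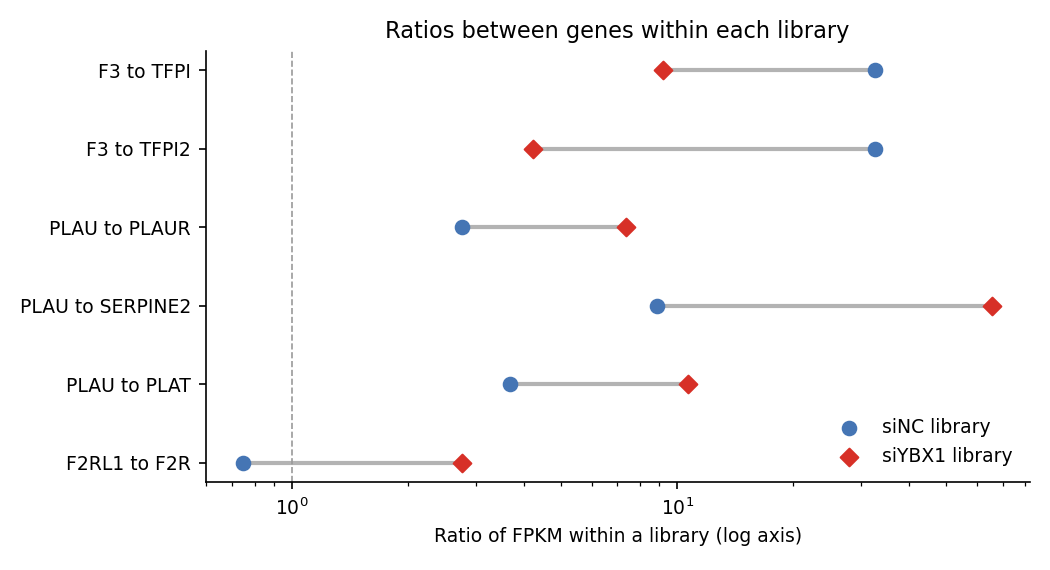
Ratio of the FPKM of 2 genes within each library on a log axis, with a circle for the siNC library, a diamond for the siYBX1 library and a dashed line at 1. Both F3 ratios are lower in the siYBX1 library, the PLAU ratios are higher, and F2RL1 to F2R crosses 1.

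Other genes of clotting, fibrinolysis and their cell surface receptors were taken from 10 lists, and where a pair of values is given below for them, that of the siYBX1 library comes first. Of 154 such genes, 85 were compared, of which 9 (10.6%) were higher and 7 (8.24%) lower by 2-fold or more, the median difference being 0.02. Another 25 were listed only in the siNC table, 3 only in the siYBX1 table and 35 in neither. Of all 13219 genes listed in either table, 1541 were only in the siNC table and 202 only in the siYBX1 table. The shares over all compared genes, given above, were 7.20% and 5.62%. With both libraries scaled to the same level of housekeeping genes, 4 of the list genes were higher and 10 lower. COL7A1, IGFBP3, ITGA5, KRT8, LMAN1 and MMP1 stayed past 2-fold in every alternative run, while each of the other list genes named as higher or lower fell short of it in at least 1.

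The plasma factors of the cascade were mostly not compared. Of 19 genes, 9 were in neither table, among them F5, F9, F10 and F13A1, and 6 were listed only in the siNC table. Those 6 were F2 (prothrombin, 1.30 FPKM), F7 (0.502 FPKM), FGA (5.86 FPKM), FGB (12.04 FPKM), FGG (4.08 FPKM) and KNG1 (0.498 FPKM). These are genes of liver, and the fibrinogen chains are themselves in the hepatocyte list, whose markers were listed in the same library; their part in this difference was not tested. F8 and F12 were under 1 FPKM in both libraries. Both subunits of the receptor that carries factors V and VIII out of the endoplasmic reticulum were compared. LMAN1 was lower, at 14.6 FPKM in the siYBX1 library and 35.8 FPKM in the siNC library (-1.24), and MCFD2 stood at 53.5 and 54.7 FPKM (-0.03).

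Among anticoagulant and vitamin K cycle genes, 1 of 8 compared was at least 2-fold higher and 0 were lower, the median difference being 0.27. The one higher was ANXA5, a protein that binds exposed phosphatidylserine, at 117 FPKM in the siYBX1 and 53.4 FPKM in the siNC library (1.12). The thrombomodulin gene THBD (3.78 against 2.75 FPKM) and the protein C receptor gene PROCR (36.9 against 27.6 FPKM) lay within 2-fold. In signalling downstream of protease-activated receptors, 0 of 16 compared genes were higher and 2 were lower, the median difference being -0.10. These were the protein kinase genes ROCK1, at 14.5 against 34.7 FPKM (-1.20), and ROCK2, at 14.4 against 34.6 FPKM (-1.21). Over all compared genes, 5.62% were lower by 2-fold or more. After removal of a trend with transcript length and GC content, 0 genes of this list were, with ROCK1 at -0.92 and ROCK2 at -0.96. The G protein genes GNAQ, GNA11, GNA12 and GNA13 and the arrestins ARRB1 and ARRB2, which couple to the receptors, all lay within 2-fold.

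Proteases known to cut PAR2 or urokinase precursor had 1 of 4 compared genes higher, CTSS, which encodes cathepsin S, at 9.68 against 3.59 FPKM (1.22), and 0 lower, the median difference being 0.76. The membrane protease gene TMPRSS2 (0.591 against 0.0656 FPKM) and the trypsin gene PRSS3 (1.31 against 0.539 FPKM) had means under 1 FPKM and were not compared. Another 5 genes of that list, ST14 and TMPRSS4 among them, were listed only in the siNC table, at 0.569 FPKM (KLK5) or less, and 5 were in neither. Beyond the 9 genes, the plasminogen list had 0 of 2 compared genes higher and 0 lower, the median difference being 0.24. SERPINB6 stood at 15.8 FPKM in the siNC and 16.8 FPKM in the siYBX1 library. SERPINB8 stood at 0.896 FPKM in the siNC and 1.51 FPKM in the siYBX1 library. SERPINB2, a serpin that inhibits urokinase, was listed only in the siYBX1 table, at 3.83 FPKM. The protease inhibitor genes A2M (4.32 FPKM) and SERPINF2 (0.339 FPKM), which encode inhibitors of plasmin, were listed only in the siNC table. So were 11 of 13 hepatocyte markers, and whether the A2M and SERPINF2 values share their source was not tested. Of the other serpins, 1 of 7 compared was higher and 0 lower, the median difference being 0.08. The higher one was SERPINA1, the gene of antitrypsin (1.19), which is also a hepatocyte marker.

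Plasminogen receptors had 0 of 10 genes higher and 1 lower, the median difference being -0.12. The abundant receptors ENO1 (420.3 against 333 FPKM), S100A10 (222 against 255 FPKM) and ANXA2 (129 against 102 FPKM) lay within 2-fold, and the keratin gene KRT8 was lower, at 27.7 against 74.7 FPKM (-1.40). Partners and clearance receptors of the urokinase receptor had 1 of 15 higher and 1 lower, the median difference being 0.22. The integrin subunit gene ITGA5 was higher, at 41.2 against 15.1 FPKM (1.38), and the lipoprotein receptor gene LRP8 was lower, at 5.27 against 12.9 FPKM (-1.14). LRP1, the main receptor that clears urokinase bound to inhibitor, stood at 3.99 and 4.10 FPKM. VTN, the matrix ligand of the urokinase receptor, was listed only in the siNC table, at 2.48 FPKM, and liver is its main source.

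Genes for substrates of plasmin or urokinase held large differences of both signs. Of 14 compared, 4 were higher and 2 lower, the median difference being 0.22. The shares over all compared genes were 7.20% and 5.62%. Of these substrate genes, only MMP1 and IGFBP3 stayed past 2-fold in every alternative run. The higher ones were the collagenase MMP1, at 109 against 27.8 FPKM (1.94), TNC, which encodes tenascin C, at 12.6 against 4.02 FPKM (1.44), the laminin chain gene LAMB3, at 93.0 against 40.0 FPKM (1.20), and CDCP1, a surface protein cut by plasmin, at 68.2 against 29.6 FPKM (1.18). Lower were IGFBP3, a binding protein of insulin-like growth factors, at 5.05 against 30.6 FPKM (-2.39), and the laminin chain gene LAMA3, at 2.03 against 7.46 FPKM (-1.48). Among Kunitz domain genes and related inhibitors, 1 of 9 compared was higher, the collagen gene COL7A1, at 13.8 against 4.17 FPKM (1.52), and 0 were lower, the median difference being -0.06. SPINT1 and SPINT2, which inhibit membrane proteases such as matriptase, lay within 2-fold.

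**Figure D4:**
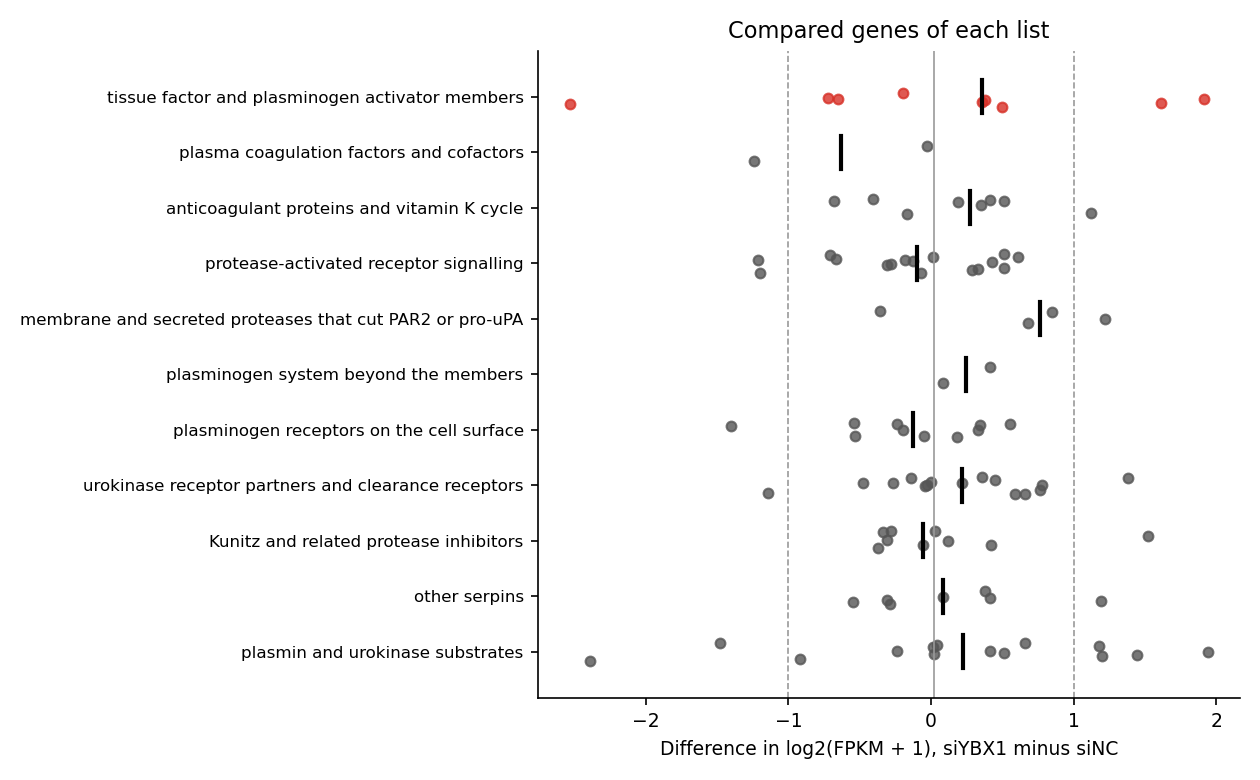
Each point is 1 compared gene of a list, placed by its difference in log2(FPKM + 1), siYBX1 minus siNC; points are spread vertically at random, black bars are list medians, the solid line is the median of all compared genes (0.02) and the dashed lines mark 2-fold. The 9 genes described here, in red, run from -2.53 to 1.91, and the other lists have medians between -0.64 and 0.76.

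The genes whose pair of levels was most like that of PLAU, by Euclidean distance in log2(FPKM + 1) over both libraries, were USMG5 (distance 0.08), EIF6 (0.14) and BRK1 (0.18). For F3 no gene came as near. PFDN2 lay at 1.09, YBX1 at 1.11 and PSMA7 at 1.27. Their differences were -1.01, -4.05 and -0.75, in this order, against -2.53 for F3. A likeness over 2 libraries holds little information.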

How the data were processed

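For each library the authors deposited FPKM per gene, per the file headers. Tools named in the submitters' processing notes, without roles, are HISAT2 2.1.0, cutadapt 1.17 and StringTie 1.3.3, and the build named is GRCh37. How genes came to be listed is not stated, nor is the strand setting.

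The 9 genes, the lists and the rule for named genes were chosen with earlier results of these data known. That rule took the 9 genes, YBX1, PLG, up to 6 genes per list past 2-fold by size of difference, and the 3 genes nearest to F3 and to PLAU. Other list genes, and C10orf55, were named after their values were seen. Results that the rule and the planned ratios admit for 1 further gene are not reported here, and the lists were counted without it. Genes in both tables whose mean reached 1 FPKM were compared in log2(FPKM + 1), with Python 3.11.15, numpy 2.4.6, pandas 2.3.3 and scikit-learn 1.9.0. The calculation was tested on simulated data. With 1 library a group, no p-value or standard deviation is given. Alternatives were other pseudocounts, filters and scalings, genes missing from 1 table taken as 0, and removal of a trend with transcript length and GC content by splines, with lengths from GENCODE 29.

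No counts accompany the values. In genes with 1 annotated transcript, low values of FPKM times length often fell on whole multiples of a smallest step, within 0.1 of a step for 68.4% of 79 values in the siYBX1 library and 60.1% of 163 in the siNC library. The steps put the depth of the siYBX1 library at about 1.24 times that of the siNC library. No counting interval was computed.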

Additional observations from a re-analysis of the deposited data

How the results depend on the processing

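No paired analysis was possible because each group held 1 library. Each of the 9 genes kept its direction and its side of the 2-fold threshold in every alternative run, 10 for SERPINE2, which a mean of at least 5 FPKM removed, and 11 for the others. The range was -2.87 to -2.47 for F3, 1.58 to 1.93 for PLAU, 1.29 to 1.67 for F2RL1 and -4.39 to -3.92 for YBX1. SERPINE2 came closest to a change, just short of the threshold with equal housekeeping levels, where TFPI stood at -0.97. Another 230 differences were recomputed for 21 genes: those of the 10 lists past 2-fold and, YBX1 aside, those nearest to F3 and PLAU. Of these differences, 13 fell short of 2-fold, 2 newly reached it and 0 reversed. Other named genes were not in this count. Over all genes, 314 were higher and 209 lower at a pseudocount of 5, 1097 were higher and 925 lower at a pseudocount of 0.1, and 399 were higher and 1278 lower at equal housekeeping levels, where the median of all genes was -0.26. At the same summed FPKM 585 were higher and 835 lower, the median difference being -0.11. Of the list genes outside the 9, 4 were higher at equal housekeeping levels (9 as deposited), and 13 were lower (7 as deposited) with genes missing from 1 table taken as 0. Counts of single lists moved by over 1.5 times in 16 of 220 cases. Most of these counts were near 0 as deposited, so that share says little about their stability. The lower count of receptor signalling, for instance, went from 2 to 0 with the length and GC trend removed. Ratios within a library, taken with 1 FPKM added to each gene, moved by less than 1.5 times. Depth limits the low genes most: at the fitted step and the lengths of its coding transcripts, SERPINE2 in the siYBX1 library rested on about 4800 to 22600 aligned bases, and F3 on about 559700 to 681200.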

Other observations

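The library with the smaller step in its low values, siYBX1, listed fewer genes. Of 1541 genes only in the siNC table, 92 had at least 1 FPKM and 11 had at least 5 FPKM. Their median was 0.109 FPKM and the highest 87.0 FPKM. Among markers of other cell types, the endothelial genes ESAM (17.1 FPKM in the siYBX1 and 5.19 FPKM in the siNC library) and EGFL7 (17.7 and 10.0 FPKM) were listed in both libraries, while KDR was listed only in the siNC table, at 0.645 FPKM. The fibroblast genes COL1A1 (3.67 and 0.351 FPKM) and PDGFRB (2.22 and 0.861 FPKM) were higher in the siYBX1 library. In log2(FPKM + 1), COL1A1 was past 2-fold (1.79) and PDGFRB was not (0.79), though its plain ratio of FPKM was 2.58. In that list, 6 of 8 genes were in neither table. Of 8 luminal markers 4 were compared, all within 2-fold: KRT19 (83.0 and 153 FPKM), EPCAM (5.10 and 8.22 FPKM), GATA3 (2.14 and 2.34 FPKM) and ERBB2 (5.74 and 5.44 FPKM).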
